A study of Mus musculus with 12 samples.

Results

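The genes described here are 10 markers of T cells and of the cytotoxic programme that T cells share with natural killer (NK) cells, followed across 12 mouse brain libraries. They were taken by symbol from the deposited table of 43346 genes: the coreceptor genes Cd8a, Cd8b1 and Cd4, the CD3 chain genes Cd3e, Cd3g and Cd3d, the adhesion receptor gene Cd2, and the cytotoxic granule genes Nkg7, Gzmb and Gzma. All 10 symbols were found, each once.

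There were 3 groups with 4 libraries each, every one labelled wild type, and a library is called by its group and the number in its title. Old_CP2 mice were 23 months old, with C57BL/6;SJL-Tg as strain label, and took CP2, an inhibitor of mitochondrial complex I, at 25 mg per kg per day in drinking water with 0.1% polyethylene glycol (PEG) from 9 months of age. Old mice matched them in age and strain label and received only the vehicle, water with 0.1% PEG, over the same months. Young mice were 3 months old, had the strain label C57BL/6 and were untreated. Age, strain label and vehicle therefore change together between Old and Young and cannot be told apart. The series' design text speaks of treated and untreated APP/PS1 mice, an amyloid transgenic line, beside non-transgenic ones, whereas the sample labels say wild type and the titles begin with NTG; this was not settled. The tissue was a slab of brain with cortex and hippocampus, from which total RNA was sequenced. The labels do not say that each library is a separate animal, so the p-values measure the spread between libraries, which may be technical.

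T cells recognise peptides through a receptor whose signal is carried by the CD3 chains, and the coreceptors CD8 and CD4 divide them into cytotoxic and helper lineages. Cytotoxic T cells and NK cells kill by releasing granules with perforin and granzymes. A healthy brain holds few T cells, most of them in the meninges, the choroid plexus and the vessel spaces, and CD8 T cells have been described in the aged mouse brain. In mice, CD8α without CD8β is also carried by a class of dendritic cells, and CD4 by some dendritic cells and macrophages. Because whole tissue was sequenced, more cells of a type and more RNA per cell cannot be told apart.

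The promoters of 3 members are shown because their genes stood among the members furthest apart between Old_CP2 and Young, and because Cd3g and Cd3d lie back to back. These genes are 1361 bases apart on chromosome 9 and read in opposite directions. The choice is not a ranking: Cd8a, with a log2 change of 4.07 against 3.05 for Nkg7 and 2.54 for Cd3g, is not shown. Each stretch runs 5′ to 3′ along the gene's own strand, from 250 bases before to 50 bases after the RefSeq start (GRCm38.p6, the assembly of mm10). Capitals mark exact matches, on either strand, to the cores of 2 motif families known in lymphocyte genes, RUNX (TGTGGT, or ACCACA on the other strand) and ETS (AGGAAG, or CTTCCT).
Cd3g, chr9:44980382-44980681, minus strand: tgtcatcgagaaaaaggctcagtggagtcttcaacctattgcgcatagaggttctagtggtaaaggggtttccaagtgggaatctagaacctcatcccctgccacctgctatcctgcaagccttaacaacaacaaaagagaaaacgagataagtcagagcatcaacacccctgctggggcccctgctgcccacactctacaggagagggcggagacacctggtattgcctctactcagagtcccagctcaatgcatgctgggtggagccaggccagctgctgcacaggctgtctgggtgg
Cd3d, chr9:44981536-44981835, plus strand: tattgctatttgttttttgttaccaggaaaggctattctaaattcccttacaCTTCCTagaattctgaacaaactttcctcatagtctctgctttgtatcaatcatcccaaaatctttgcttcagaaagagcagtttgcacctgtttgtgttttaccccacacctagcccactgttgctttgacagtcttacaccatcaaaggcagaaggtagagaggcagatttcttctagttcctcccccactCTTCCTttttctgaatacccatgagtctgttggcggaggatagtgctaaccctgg
Nkg7, chr7:43436888-43437187, plus strand: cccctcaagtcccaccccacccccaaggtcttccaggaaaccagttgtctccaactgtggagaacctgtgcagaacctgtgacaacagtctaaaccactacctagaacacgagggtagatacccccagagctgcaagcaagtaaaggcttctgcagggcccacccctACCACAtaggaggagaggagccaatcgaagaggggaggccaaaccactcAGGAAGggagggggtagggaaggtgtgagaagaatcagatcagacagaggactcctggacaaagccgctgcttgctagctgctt
The Cd3d stretch holds 2 ETS matches and the Nkg7 stretch 1 of each, while the Cd3g stretch holds none of either. Of the 7 members with a RefSeq promoter in the table used, 5 had a match to at least 1 motif. Cd3e had 2 ETS matches, Gzmb 2 RUNX matches, Gzma 1 RUNX match and Cd8a none. Over all 32851 promoters of this length, 16.8% hold the RUNX core and 35.4% the ETS core, so a match by itself is common. No RefSeq promoter was available for Cd4, Cd8b1 and Cd2.

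All members were rare transcripts. Depth was 78021395 to 99449665 counts in Old_CP2, 70548781 to 94741585 in Old and 77469073 to 91549618 in Young, yet each of the 10 genes had between 10 (Gzma) and 997 (Cd4) reads over all 12 libraries. Levels are given as normalised CPM, the count scaled to the library's depth with TMM factors. Before these factors 1 CPM was worth 70.55 to 99.45 counts. A count of 0 in a library allows up to 3 reads, or 0.0305 to 0.0441 CPM, counting error only. Even counts were in excess: 49 of the 66 member values of 1 to 10 reads were even, as were 57.9% of such values over all genes. Whether each mate of a read pair was counted was not tested, but if so, reads are not independent and the counting intervals are too narrow. Only Cd8a, Cd8b1 and Cd4 passed edgeR's filter on low counts, which kept 22553 genes; for the other 7, fold changes and p-values come from the same edgeR fit run without a filter on 33950 genes. Fold changes are log2 values ± standard error, and a gene is called at an adjusted p (edgeR quasi-likelihood test, Benjamini-Hochberg) under 0.05.

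Some libraries stood apart in ways that touch the members. Summed transcripts of the choroid plexus were 28.2 to 842 CPM in Old_CP2, 32.4 to 981 in Old and 1238 to 1988 in Young, with Old_CP2 11 and 15 and Old 7 and 9 the lowest. Those of the striatum were 256 to 340 CPM in Old_CP2, 267 to 343 in Old and 391 to 636 in Young. Those of red blood cells were 228 to 444 CPM in Old_CP2, 81.7 to 148 in Old and 59.3 to 91.0 in Young, with all Old_CP2 libraries above all Old and Young ones. Transcripts of cortical and hippocampal neurons, the labelled tissue, were high everywhere, at 5324 to 6354 CPM in Old_CP2, 4639 to 5950 in Old and 5462 to 6041 in Young. The part of tissue makeup in the results below was not tested.

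In Old against Young brains, Cd8a was higher and Cd4 lower, and these were the 2 members called. Of all genes tested, 6.7% were called. Cd8a reached the filter only with the Old_CP2 libraries in the fit, and fell below it when Old and Young were fitted alone, so no share of the members that passed is read against this. Without a filter 2 of 10 members were called, against 3.98% of genes. In Old_CP2 against Young brains the same pair was called, Cd8a higher and Cd4 lower, where 7.57% of all genes tested were called. Here too Cd8a passed the filter only through the Old_CP2 libraries, where it was highest, so the members' share is not read against this. The fit without a filter added Cd3d and Cd2, both higher, which made 4 of 10 members against 4.53% of genes. In Old_CP2 against Old brains no member was called, against 0.0443% of genes with the filter and 0.0501% without. DESeq2 and limma voom were run with the filter only, so among the members they tested Cd8a, Cd8b1 and Cd4 alone. These tools called none of the 3 there either, against 0.479% and 0.0488% of genes. At an unadjusted p under 0.05 in edgeR, 0 of 3 members passed with the filter, where 6.31% of genes did, and 2 of 10, Cd2 and Nkg7, without it, where 5.43% did. These 3 comparisons share their groups and are not independent of each other.

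**Figure D1:**
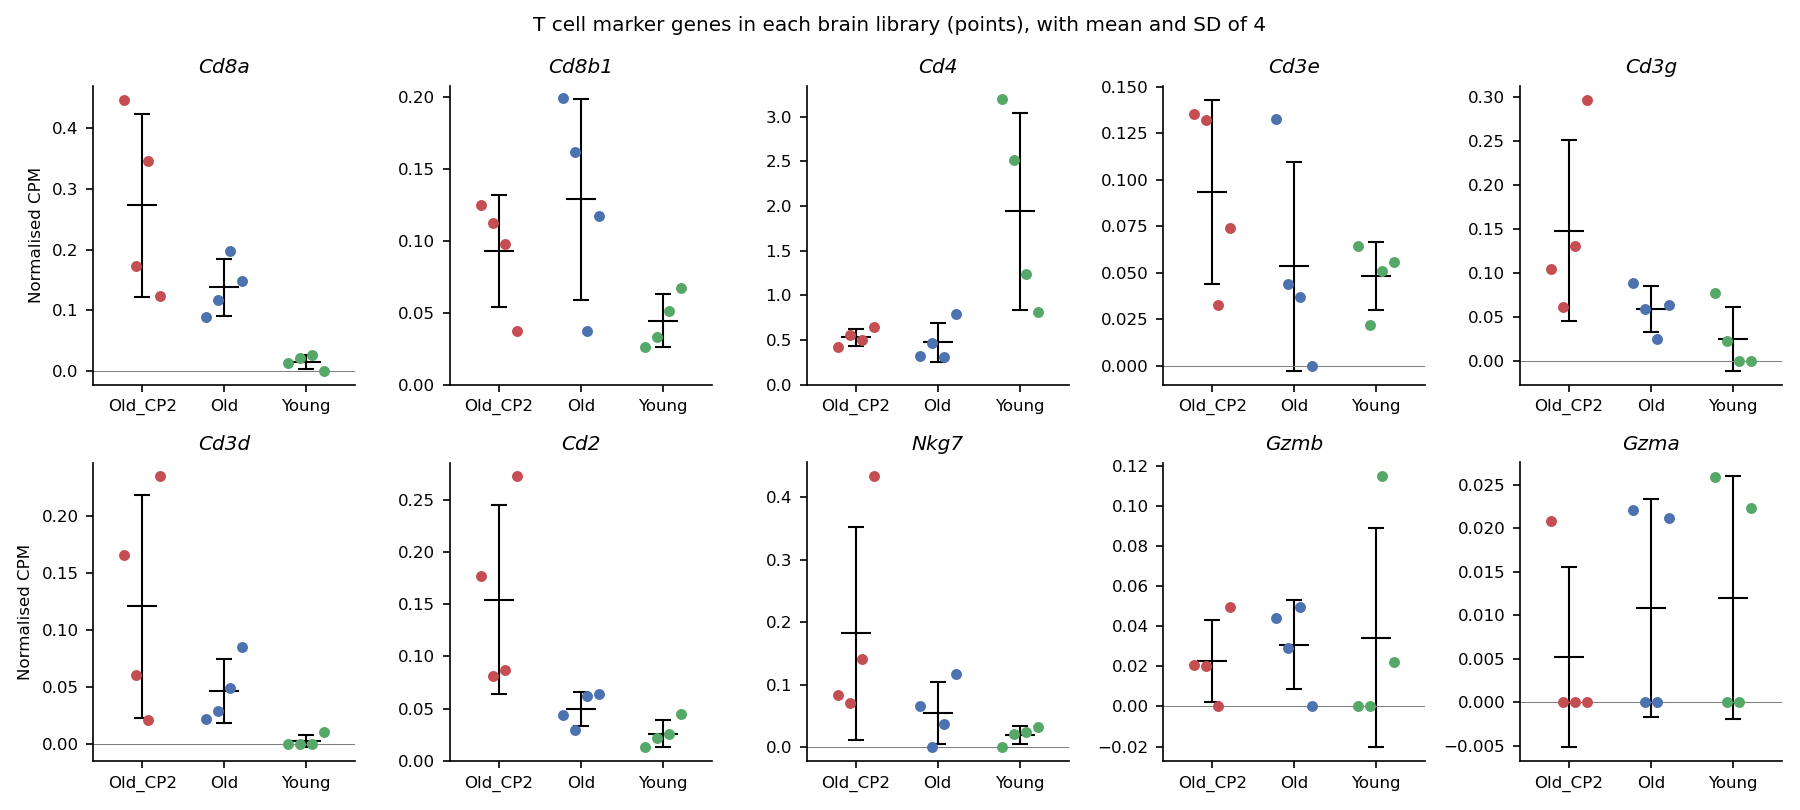
Normalised CPM (y axis, from a separate scale in each panel) of the 10 marker genes in the 4 libraries of Old_CP2, Old and Young (points), with the mean and SD (bars). Cd8a lies at 0.124 to 0.447 CPM in Old_CP2 and 0.0884 to 0.198 in Old, above all Young libraries (0 to 0.0255), while Cd4 is lower in Old_CP2 and Old than in Young.

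Cd8a encodes the α chain of the CD8 coreceptor (ENSMUSG00000053977, mm10 chromosome 6, 71373427 to 71379171, plus strand). Its reads numbered 43, 17, 32 and 10 in the Old_CP2 libraries 11, 12, 13 and 15, then 8, 8, 16 and 14 in the Old libraries 7, 8, 9 and 10, and 1, 2, 2 and 0 in the Young libraries 1, 3, 4 and 5. Every Old_CP2 and every Old library lay above every Young library, while Old_CP2 and Old overlapped, with Old_CP2 11 and 13 above all Old libraries. Mean levels were 0.273 ± 0.151 CPM in Old_CP2, 0.138 ± 0.0470 in Old and 0.0152 ± 0.0114 in Young (SD, n = 4 each). Old over Young came to 3.09 ± 0.673 (edgeR adjusted p = 0.0174) and Old_CP2 over Young to 4.07 ± 0.633 (edgeR adjusted p = 0.00303). Since Young held only 5 reads in all, the plain ratios of reads per depth are given too, 9.27 for Old over Young (95% counting interval 3.70 to 29.9) and 18.6 for Old_CP2 over Young (7.73 to 58.6). These intervals pool the reads of a group and leave out the spread between its libraries. Old_CP2 over Old was 0.98 ± 0.464 (edgeR adjusted p = 0.796). With Old 7 and 9 and Old_CP2 11 and 15 left out, the libraries poorest in choroid plexus RNA, Old over Young was 3.05 but missed the threshold (edgeR adjusted p = 0.0661).

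Cd8b1 encodes the β chain of the same coreceptor and lies 35949 bases before Cd8a on chromosome 6 (71322836 to 71337477). It had 12, 11, 9 and 3 reads in the Old_CP2 libraries, 18, 11, 3 and 11 in the Old libraries and 2, 3, 4 and 6 in the Young libraries, in the same order of libraries, which holds for all genes below. Most Old_CP2 and Old libraries were above Young, but Old_CP2 15 and Old 9, with 3 reads each, fell within the Young range. Means were 0.0929 ± 0.0388 CPM in Old_CP2, 0.129 ± 0.0696 in Old and 0.0443 ± 0.0184 in Young (SD, n = 4 each). Old over Young was 1.5 ± 0.552 (edgeR adjusted p = 0.128), Old_CP2 over Young 1.05 ± 0.563 (0.288) and Old_CP2 over Old -0.45 ± 0.495 (0.905), so none was called. The chains did not rank the libraries alike: Old 9 was the highest Old library in Cd8a and the lowest in Cd8b1. Of the markers that define the dendritic cells with CD8α alone, both chosen after their values were seen, the chemokine receptor gene Xcr1 totalled 39 reads over the Old_CP2 libraries, 38 over Old and 38 over Young. The lectin gene Clec9a totalled 121 reads over Old_CP2, 136 over Old and 58 over Young, with an Old over Young value of 1.24 ± 0.374 (edgeR adjusted p = 0.0663). The part of these cells in the Cd8a result was not tested.

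Cd4, the coreceptor of helper T cells, went the other way (ENSMUSG00000023274, chromosome 6, 124864692 to 124888221, minus strand). It had 40, 55, 46 and 52 reads in Old_CP2, 29, 32, 25 and 74 in Old, and 247, 227, 97 and 73 in Young. Young 1 and 3 held by far the most, and the lowest Young library (0.814 CPM) was only just above the highest Old one (Old 10, 0.786 CPM). Means were 0.530 ± 0.0964 CPM in Old_CP2, 0.472 ± 0.222 in Old and 1.94 ± 1.11 in Young (SD, n = 4 each). Cd4 was lower in Old than in Young by -2.03 ± 0.410 (edgeR adjusted p = 0.0122) and lower in Old_CP2 than in Young by -1.87 ± 0.404 (edgeR adjusted p = 0.0153). Old_CP2 over Old was 0.16 ± 0.421 (edgeR adjusted p = 0.964). With Old 7 and 9 and Old_CP2 11 and 15 left out, the values against Young were -1.60 for Old (edgeR adjusted p = 0.15) and -1.86 for Old_CP2 (0.0845), neither called, and without Old_CP2 11 alone the Old_CP2 value was -1.77 (0.0525).

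The genes whose levels followed Cd4 most closely were not T cell genes. Over 16695 genes of at least 1 CPM on average, the 5 with the highest Pearson correlation to Cd4 in log2 CPM were Adcy5 (r = 0.951), Itpk1 (0.944), Sema6a (0.94), Adora2a (0.939) and Penk (0.938). These are descriptions over 12 libraries that share their 3 groups, and carry no test. Adora2a, an adenosine receptor gene, and Penk, the precursor of enkephalin, are marker genes of striatal neurons, and Adcy5 is the main adenylyl cyclase of the striatum. Adora2a was at 1.57, 5.22, 3.47 and 1.86 CPM in Old_CP2, 1.28, 3.21, 1.74 and 5.46 in Old, and 23.6, 19.4, 10.8 and 7.09 in Young. Within Young, Cd4 and Adora2a put the libraries in the same order, and within Old both were highest in Old 10. Within Old_CP2 they did not match, with Cd4 highest in library 15 (0.644 CPM) and Adora2a highest in library 12. Adora2a itself was lower by -2.38 ± 0.507 in Old than in Young (edgeR adjusted p = 0.0157) and by -2.32 ± 0.504 in Old_CP2 than in Young (0.0157). Of 9 striatal genes tested, 6 were lower in Old than in Young and 5 lower in Old_CP2 than in Young, where 6.7% and 7.57% of all genes were called in either direction. The striatum was not alone in this. Of 10 genes of thalamus and habenula 5 were lower in both comparisons, with sums of 384 to 671 CPM in Old_CP2, 432 to 668 in Old and 748 to 1079 in Young. Of 10 hypothalamic genes, 3 were lower in Old and 1 in Old_CP2 than in Young. The part of these regions in the Cd4 difference was not tested. Among 6 tested genes of helper and regulatory T cells, Gata3, a transcription factor of helper T cells and of several other cell types, was higher in Old than in Young by 2.92 ± 0.305 (edgeR adjusted p = 0.00047). Zbtb7b, the regulator that commits T cells to the CD4 lineage, was lower in Old_CP2 than in Young by -0.29 ± 0.0735 (edgeR adjusted p = 0.0308). Gata3 and Zbtb7b each overlap a gene model on the opposite strand, whose reads cannot be told from theirs.

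**Figure D2:**
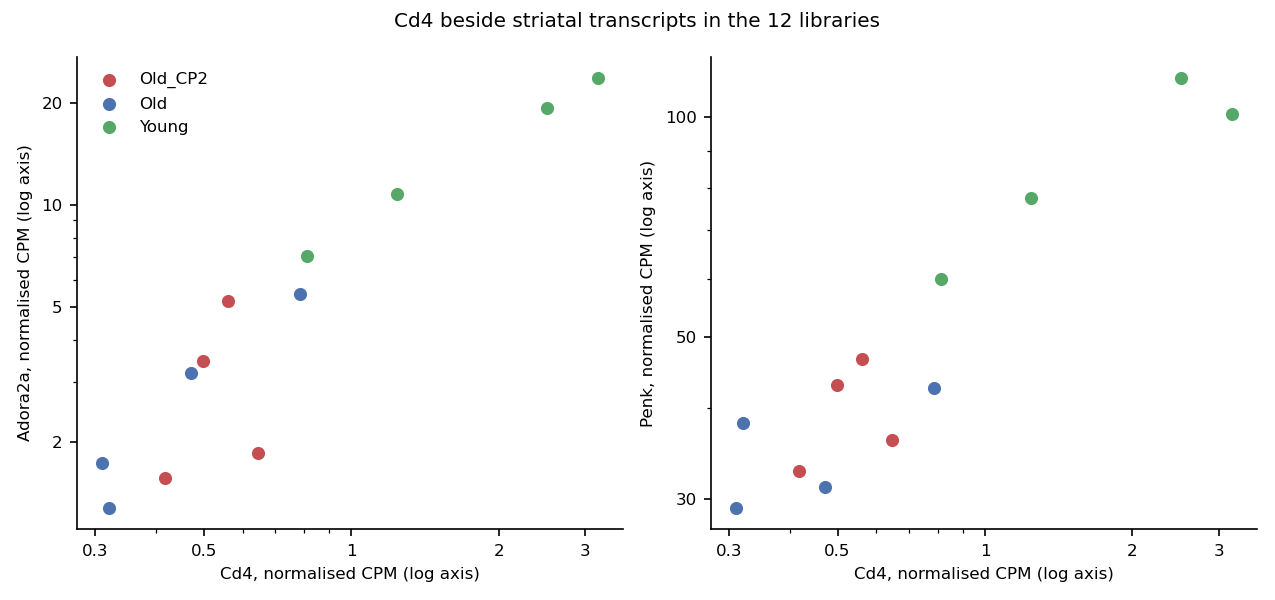
Cd4 (x axis, normalised CPM, log axis) against Adora2a and Penk (y axes, normalised CPM, log axes), 1 point for each of the 12 libraries, coloured by group. The 4 Young libraries lie highest on both axes in both panels, and the Old_CP2 and Old libraries lie together at the lower left.

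The genes nearest to Cd8a were Crkl (r = 0.951), Pik3r5 (0.949), Zkscan16 (0.936), St3gal1 (0.933) and Dtx3l (0.931). Crkl, an adaptor protein, averaged 53.4 CPM in Old_CP2, 51.9 in Old and 43.2 in Young. Its Old over Young change was 0.26 ± 0.0544 (edgeR adjusted p = 0.0135), against 3.09 for Cd8a. None of the 5 was called between Old_CP2 and Old, with edgeR adjusted p from 0.878 (Dtx3l) to 0.97 (St3gal1).

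The CD3 chains, which every αβ and γδ T cell needs for its receptor to signal, numbered 39, 25, 17 and 49 reads in Old_CP2, 22, 9, 9 and 14 in Old, and 11, 4, 4 and 6 in Young when summed. All Old_CP2 libraries held more than any Young library, and Old overlapped with both. The 3 chain genes did not move alike.

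Cd3d (ENSMUSG00000032094, δ chain, chromosome 9, 44981793 to 44987052) had 16, 6, 2 and 19 reads in Old_CP2, 2, 2, 4 and 8 in Old, and 0, 0, 0 and 1 in Young. Old_CP2 and Old were each above all Young libraries, and overlapped each other. The Young group held 1 read in total, so the ratio of reads per depth is given with its 95% counting interval, 39.3 for Old_CP2 over Young (6.69 to 1590) and 16.1 for Old over Young (2.50 to 676). These intervals, too, leave out the spread between libraries, so they are no test of the groups. In the fit without a filter Cd3d was called in Old_CP2 against Young (edgeR adjusted p = 0.0142) and not in Old against Young (edgeR adjusted p = 0.103). Old_CP2 over Old was 1.33 ± 0.744 (edgeR adjusted p = 0.827). With Old 7 and 9 and Old_CP2 11 and 15 left out, of which the last 2 were the highest in Cd3d, Old_CP2 over Young was 3.30 and its call was lost (edgeR adjusted p = 0.267), against a fitted 4.80 with all libraries. Old_CP2 over Old was then -0.48 (edgeR adjusted p = 1), the other sign.

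Cd3g (γ chain, chromosome 9, 44969572 to 44980431) had 10, 6, 12 and 24 reads in Old_CP2, 8, 4, 2 and 6 in Old, and 6, 2, 0 and 0 in Young. Old_CP2 15 was the highest, and Young 1 reached the lowest Old_CP2 library's count of reads. Old_CP2 over Young was 2.54 ± 0.838 (edgeR adjusted p = 0.107), Old over Young 1.25 ± 0.888 (0.549) and Old_CP2 over Old 1.29 ± 0.753 (0.827). Without Young 1 the first of these was called, at 4.02 (edgeR adjusted p = 0.0346).

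Cd3e (ε chain, chromosome 9, 44998743 to 45009590) had 13, 13, 3 and 6 reads in Old_CP2, 12, 3, 3 and 0 in Old, and 5, 2, 4 and 5 in Young. The groups overlapped throughout, and the smallest edgeR adjusted p of the 3 comparisons was 0.551, for Old_CP2 over Young at 0.96 ± 0.765. Old 7 alone held 12 of the 18 Old reads. Of the CD3 chains, whose proteins sit in the same receptor complex, Cd3e had the smallest fitted change in Old over Young and in Old_CP2 over Young, a difference between genes that was not tested.

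Cd2, an adhesion receptor of T and NK cells (ENSMUSG00000027863, chromosome 3, 101275899 to 101287939), had 17, 8, 8 and 22 reads in Old_CP2, 4, 2, 5 and 6 in Old, and 1, 2, 2 and 4 in Young. Every Old_CP2 library was above every Old and every Young library, and it was the 1 member for which Old_CP2 and Old did not overlap, against 1.24% of all genes higher without overlap. Means were 0.154 ± 0.0901 CPM in Old_CP2, 0.0498 ± 0.0162 in Old and 0.0263 ± 0.0133 in Young (SD, n = 4 each). Old_CP2 over Old was 1.58 ± 0.555 (edgeR adjusted p = 0.798). An exact two-sided permutation test of CPM gave an unadjusted p = 0.0286, the smallest that 4 against 4 libraries allow. Any gene without overlap gives this value, so it adds nothing to the overlap. Old_CP2 over Young was 2.48 ± 0.598 (edgeR adjusted p = 0.026). That call was lost, and its edgeR adjusted p was 0.0663 to 0.0881, when Young 1, 3 or 4 or Old_CP2 11 or 15 was left out, and was 0.441 with Old 7 and 9 and Old_CP2 11 and 15 all left out.

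Nkg7 encodes a membrane protein of cytotoxic granules in NK and cytotoxic T cells (chromosome 7, 43437073 to 43438246). It had 8, 7, 13 and 35 reads in Old_CP2, 6, 0, 3 and 11 in Old, and 0, 2, 2 and 3 in Young. Every Old_CP2 library was above every Young library, and Old overlapped with both. Old_CP2 15 held 35 of the 63 Old_CP2 reads: the Old_CP2 mean was 0.182 ± 0.170 CPM with it (SD, n = 4) and 0.0985 ± 0.0372 without it (SD, n = 3), against 0.0551 ± 0.0493 in Old (SD, n = 4). Old_CP2 over Old was 1.63 ± 0.767 (edgeR adjusted p = 0.827). Old_CP2 over Young, at 3.05 ± 0.873, just missed the threshold in edgeR without a filter (adjusted p = 0.0589), and passed it when only those groups were fitted (0.0426).

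Gzmb and Gzma encode granzymes, proteases that the granules deliver into target cells, and both had few reads. Gzmb had 2, 2, 0 and 4 reads in Old_CP2, 4, 2, 4 and 0 in Old, and 0, 0, 9 and 2 in Young. Young 4 held the most of any library, and the groups overlapped, with edgeR adjusted p of 0.871 or more in all 3 comparisons. Gzma had 2, 0, 0 and 0 reads in Old_CP2, 2, 0, 0 and 2 in Old, and 2, 0, 0 and 2 in Young, all within the 3 reads that a count of 0 allows. Neither gene was called in any comparison, and counts this low leave wide errors, with standard errors of 1.18 to 1.45 on the log2 scale. The other granzyme genes with more reads, chosen after their values were seen, were Gzmk and Gzmm. Gzmk had 33, 26, 16 and 59 reads in Old_CP2, 64, 29, 26 and 69 in Old, and 22, 14, 23 and 18 in Young, and it overlaps Esm1 on the opposite strand. Its Old libraries were all above Young in CPM, but the Old over Young value of 1.24 ± 0.428 was not called (edgeR adjusted p = 0.106). Gzmm had 123 to 149 reads in Old_CP2, 107 to 143 in Old and 120 to 156 in Young.

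**Figure D3:**
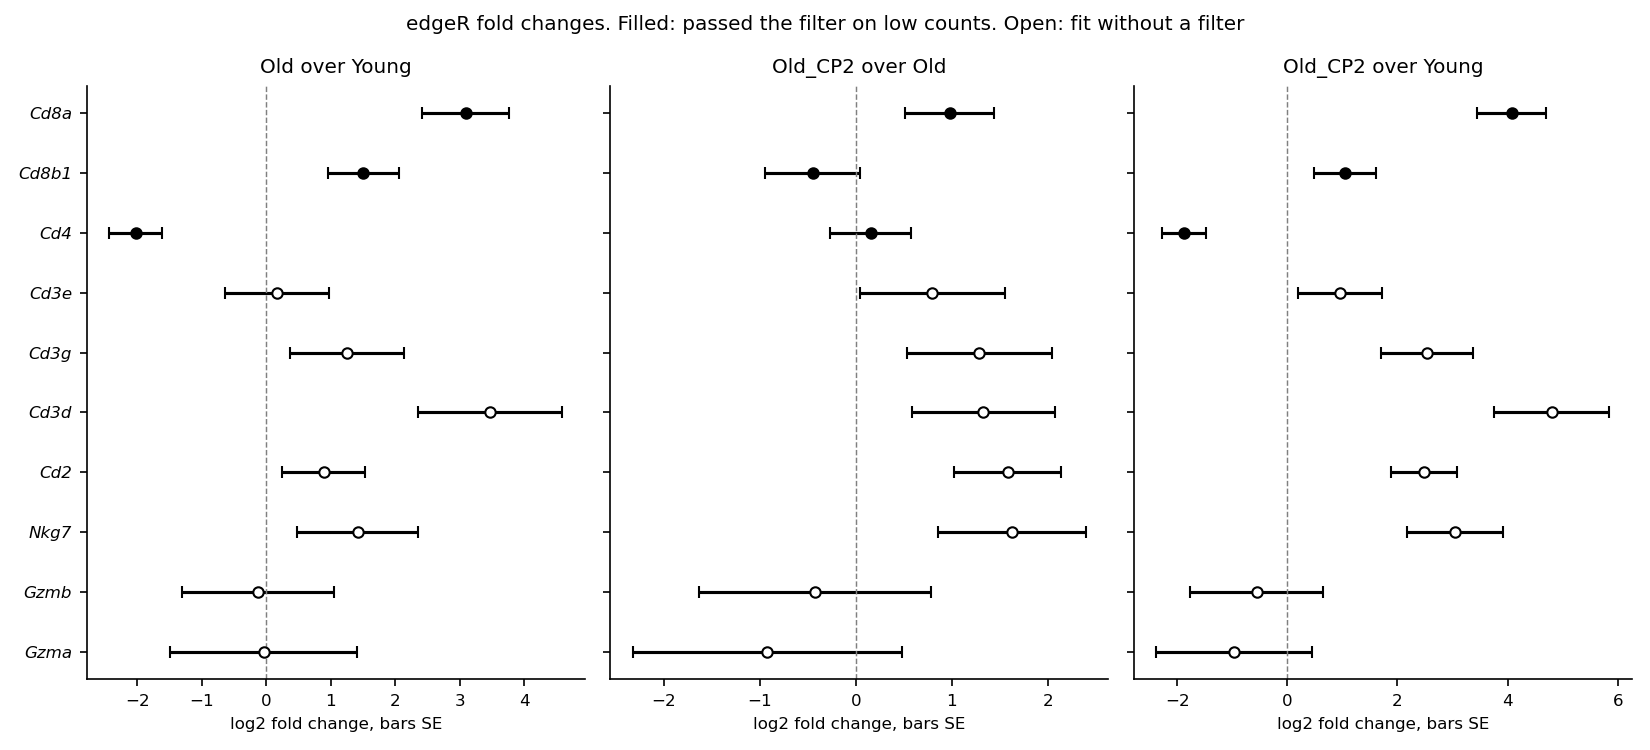
Log2 fold changes (x axes) of the 10 members in Old over Young, Old_CP2 over Old and Old_CP2 over Young, with standard errors as bars. Filled points passed the filter on low counts and open points come from the fit without it; Cd8a and Cd4 lie apart from 0 on opposite sides against Young, and the Cd3d point against Young rests on 1 Young read and is not a bound.

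Whether the libraries of a pair of groups overlap was counted as well. Cd8a and Cd3d were higher in all Old than in all Young libraries, against 4.87% of all genes, and Cd4 lower, against 4.6%. Cd8a, Cd3d, Cd2 and Nkg7 were higher in all Old_CP2 than in all Young libraries, against 5.85%, and Cd4 lower, against 5.31%. Over the 10 members the median log2 fold change was 1.07 in Old over Young, 0.89 in Old_CP2 over Old and 1.77 in Old_CP2 over Young, where the median of all genes was 0. In each comparison 7 of the 10 were above 0 and 3 below.

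Summed over the 9 members other than Cd4, which was left out after its values were seen, reads numbered 123, 70, 79 and 123 in Old_CP2, 64, 32, 40 and 58 in Old, and 17, 13, 23 and 23 in Young. The 3 groups did not overlap in this sum, but Old_CP2 12 (0.713 CPM) was only just above Old 7 (0.707 CPM). Cd4 went the other way, with 193, 160 and 644 reads over Old_CP2, Old and Young, so the separation rests on leaving it out. The sum carries no test. Its makeup differed among the Old_CP2 libraries. In Old_CP2 11 the CD8 chains gave 55 of the 123 reads, and in Old_CP2 15, with the same total, they gave 13, while Cd2 and Nkg7 gave 57. Old_CP2 15 was the highest of all 12 libraries in Cd3g, Cd3d, Cd2 and Nkg7 and the lowest Old_CP2 library in Cd8a and Cd8b1.

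**Figure D4:**
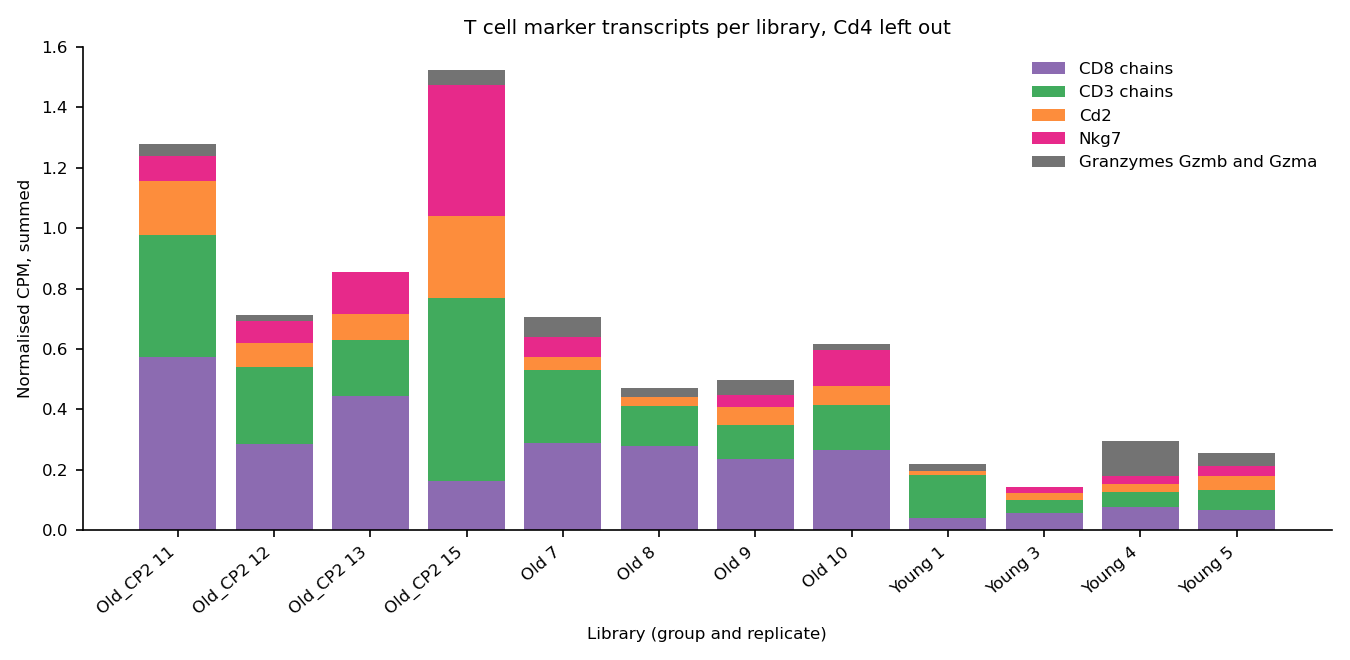
Normalised CPM summed over the 9 members other than Cd4 (y axis) in each library (x axis), stacked by CD8 chains, CD3 chains, Cd2, Nkg7 and granzymes. The bars reach 0.713 to 1.52 CPM in Old_CP2, 0.471 to 0.707 in Old and 0.144 to 0.294 in Young, and Old_CP2 15 has the largest Nkg7 share and a small CD8 share.

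Old_CP2 15 also stood out in some, not all, transcripts of other lymphocytes, and those named here were all chosen after their values were seen. Ccl5, a chemokine made by cytotoxic cells, had 48, 15, 26 and 218 reads in the Old_CP2 libraries, 37, 11, 11 and 16 in Old and 4, 19, 7 and 8 in Young. Cxcr3, a chemokine receptor of activated T cells, had 12, 10, 12 and 38 reads in Old_CP2, 6, 8, 7 and 10 in Old and 7, 0, 6 and 1 in Young. Of genes of NK cells, Klrd1, a receptor chain that cytotoxic T cells also carry, had 4, 7, 0 and 24 reads in Old_CP2, 14, 13, 4 and 5 in Old and 2, 12, 4 and 17 in Young, and was highest in Old_CP2 15. Tbx21, a transcription factor of cytotoxic and helper lymphocytes, was also highest there, at 23 reads, and had 4 to 13 in the other libraries. Ncr1, an NK receptor gene, had 0 reads over Old_CP2, 4 over Old and 6 over Young, too few to set the groups apart. Other genes of cytotoxic and NK cells were highest elsewhere. Klrk1 reached 0.221 CPM in an Old library and at most 0.104 in Old_CP2, and Eomes 2.61 in an Old library and at most 0.397 in Old_CP2. The summed level of 8 B and plasma cell genes was 1.96, 1.98, 1.55 and 4.34 CPM in Old_CP2, 1.57, 1.62, 2.38 and 1.80 in Old and 0.505, 0.819, 0.664 and 0.714 in Young, so Old_CP2 15 was the highest there too. A large part of this sum in the old groups was Pax5, which overlaps gene models on the opposite strand. Pax5 averaged 1.08 CPM in Old_CP2, 0.893 in Old and 0.0578 in Young. Whether these transcripts belong to the same source as the Cd2 and Nkg7 reads of Old_CP2 15 was not tested. Old_CP2 11, the highest in Cd8a, held 4094 reads of Cd74, a chaperone of antigen presentation, against 639 to 1424 in the other Old_CP2 libraries, 428 to 700 in Old and 142 to 371 in Young.

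Per length of transcript, the deposited RPKM values order the members differently in each group. In Old_CP2 Nkg7 came first at 0.177 ± 0.168 RPKM, then Cd3g at 0.118 ± 0.0838 and Cd4 at 0.112 ± 0.0212 (SD, n = 4 each), neighbours that do not differ beyond their spread. The first place of Nkg7 rests on Old_CP2 15: without that library Nkg7 averaged 0.0947 ± 0.0359 RPKM and Cd4 0.103 ± 0.0150 (SD, n = 3 each). In Old Cd4 came first at 0.0954 ± 0.0468 RPKM and Cd8b1 next at 0.0739 ± 0.0403, again within their spread. In Young Cd4, at 0.389 ± 0.217 RPKM, was far above Cd3e, the next at 0.0274 ± 0.0103, while Cd8a was ninth and Cd3d last. The ratio of Cd8a to Cd4 in RPKM was 0.248 to 1.38 in Old_CP2, 0.244 to 0.824 in Old and 0 to 0.0266 in Young. Cd8a was higher and Cd4 lower in all libraries of both old groups than in all Young ones. The ratio therefore could not overlap with Young and is no further result.

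Genes of the T cell receptor and its signalling were counted beside the shares of all genes called, 6.7% in Old and 7.57% in Old_CP2 against Young. Of the receptor constant genes, Trac, Trbc1 and Trbc2 were tested and none was called. Trbc2 was at 2.50 ± 0.718 CPM in Old_CP2, 1.90 ± 0.777 in Old and 3.45 ± 0.853 in Young (SD, n = 4 each). Its Old over Young value was -0.87 ± 0.285 (edgeR adjusted p = 0.0889), and that of Trbc1 was -0.96 ± 0.326 (0.101). Trac was not lower in the old groups, at 0.930 ± 0.312 CPM in Old_CP2, 0.664 ± 0.244 in Old and 0.658 ± 0.172 in Young (SD, n = 4 each). Its Old over Young value was 0.02 ± 0.312 (edgeR adjusted p = 0.979) and its Old_CP2 over Young value 0.49 ± 0.308 (0.368). Of 23 signalling genes tested, 1 was higher and 1 lower in Old than in Young, and 1 was higher in Old_CP2 than in Young. The higher one was Skap1, an adaptor that couples the receptor to integrins, at 1.82 ± 0.261 CPM in Old_CP2, 1.70 ± 0.164 in Old and 1.09 ± 0.161 in Young (SD, n = 4 each; edgeR adjusted p = 0.00962 for Old_CP2 over Young and 0.023 for Old over Young); a gene model overlaps it on the opposite strand. The lower one, Sh2d1a, overlaps Tenm1 on the opposite strand, and without strand its reads cannot be told from those of that gene. The list's median log2 change was 0.16 in Old over Young, 0.13 in Old_CP2 over Old and 0.36 in Old_CP2 over Young.

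Of 5 inhibitory receptor genes tested, 3 rose in Old against Young and the same 3 in Old_CP2 against Young. For this list and those below, the share of all genes called in these comparisons was 6.7% and 7.57%. Pdcd1, which encodes PD-1, a receptor of activated and exhausted T cells, had 35, 41, 42 and 32 reads in Old_CP2, 16, 16, 33 and 37 in Old, and 6, 4, 3 and 6 in Young. All Old_CP2 and Old libraries were above Young, with 2.40 ± 0.359 for Old over Young (edgeR adjusted p = 0.00315) and 2.82 ± 0.353 for Old_CP2 over Young (0.000943). The others, Lag3 and Havcr2, are also transcribed by microglia. Lag3 was higher in Old than in Young by 1.10 ± 0.151 (edgeR adjusted p = 0.00188) and Havcr2 by 0.51 ± 0.113 (0.0195). Of 16 genes of tissue residence and T cell chemokines tested, 5 rose in each of these comparisons. Cxcl16 and Itga4 rose in both, by 0.92 ± 0.151 and 0.38 ± 0.0723 in Old over Young (edgeR adjusted p = 0.00471 and 0.0101). Each overlaps a gene on the opposite strand. S1pr1, the receptor by which T cells leave lymphoid tissue and which brain cells also carry, was 1 of the 5 in Old. Ccl5 was 1 of the 5 in Old_CP2, and both were chosen after their values were seen. Itgal, the α chain of the integrin LFA-1, averaged 1.73 ± 0.611 CPM in Old_CP2, 1.56 ± 0.351 in Old and 0.676 ± 0.110 in Young (SD, n = 4 each). The Old over Young value of Itgal was 1.20 ± 0.262 (edgeR adjusted p = 0.0179). Itgb2, its β chain, rose by 0.60 ± 0.108 in Old over Young (edgeR adjusted p = 0.00727), and microglia also carry it. Of 7 genes of cytotoxic and NK cells tested, Cst7, an inhibitor of granule proteases that activated microglia make as well, rose in Old (2.08 ± 0.408, edgeR adjusted p = 0.0109) and in Old_CP2 (3.05 ± 0.403, 0.0012) over Young, and Srgn, the proteoglycan that packs granules, in Old_CP2 over Young (0.55 ± 0.140, 0.0319). Of the granzyme and NK receptor genes of the list, only Gzmk, Gzmm and Klrd1 were tested, and none was called. The other granzyme and NK receptor genes of the list were below the filter and not tested. The perforin gene Prf1, with 0 to 8 reads a library, was below it too. Between Old_CP2 and Old, edgeR, DESeq2 and limma voom called 0 of the 60 genes tested in these 6 T and NK cell lists, and 5 had an unadjusted p under 0.05 in edgeR, where 6.31% of all genes did.

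Markers of other cells of the brain and its borders were counted beside them. Of 9 microglial genes tested, 1 was higher in Old and 3 in Old_CP2 than in Young, with summed levels of 332 to 360 CPM in Old_CP2, 349 to 371 in Old and 259 to 321 in Young. Of 13 genes of dendritic cells and border macrophages, 2 were higher in Old and 3 in Old_CP2 than in Young, at summed levels of 42.8 to 78.0 CPM in Old_CP2, 40.5 to 50.5 in Old and 31.6 to 35.0 in Young. Itgax, the gene of CD11c, which dendritic cells and a class of aged microglia carry, averaged 1.97 ± 0.706 CPM in Old_CP2, 0.993 ± 0.353 in Old and 0.146 ± 0.0572 in Young (SD, n = 4 each; edgeR adjusted p = 0.00211 for Old over Young). Of 9 genes of meningeal fibroblasts, 3 were higher in Old and 3 in Old_CP2 than in Young, with sums of 831 to 1130 CPM in Old_CP2, 715 to 1064 in Old and 317 to 815 in Young. Old_CP2 15 was the highest of all libraries in this sum. Dcn, the gene of the matrix proteoglycan decorin, averaged 48.2 ± 8.05 CPM in Old_CP2, 47.8 ± 12.3 in Old and 18.9 ± 5.36 in Young (SD, n = 4 each; edgeR adjusted p = 0.00352 for Old over Young). The part of all these cells in the T cell marker results was not tested.

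**Figure D5:**
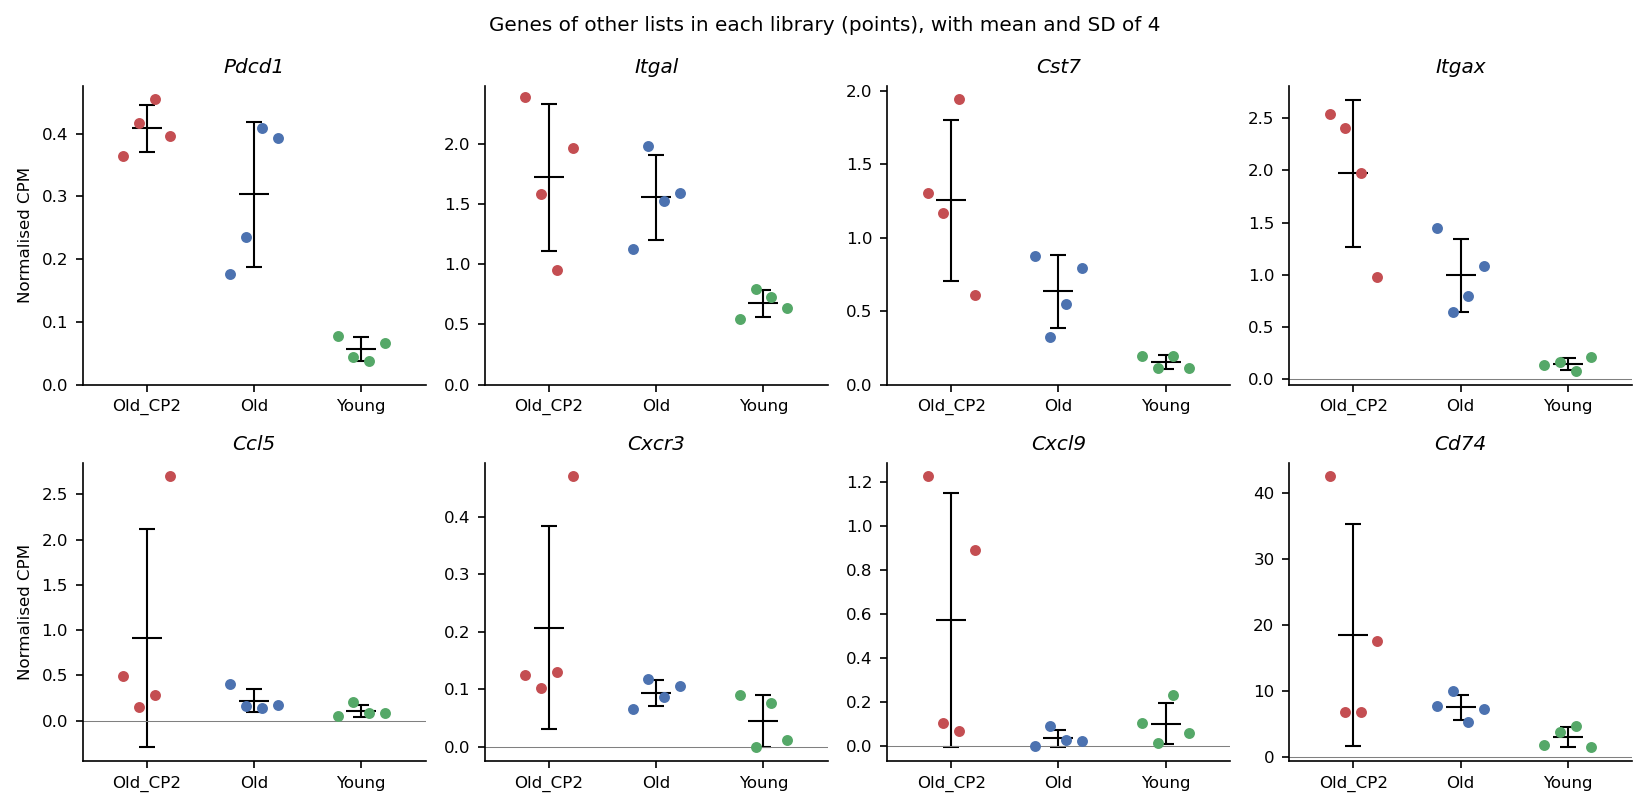
Normalised CPM (y axes, separate scales) of 8 genes from the other lists in the 4 libraries of Old_CP2, Old and Young (points), with mean and SD (bars). Pdcd1, Itgal, Cst7 and Itgax are higher in all Old_CP2 and Old libraries than in Young, whereas for Ccl5, Cxcr3, Cxcl9 and Cd74 1 or 2 Old_CP2 libraries lie far above the rest. Ccl5, Cxcr3, Cxcl9 and Cd74 were chosen after their values were seen, and Cxcl9 was below the filter on low counts.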

How the data were processed

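Brain RNA from 12 libraries was analysed from a table of 43346 genes. Per the file headers, the authors deposited a count and an RPKM value per gene and library, with mm10 positions and a coding length column of unit bases. Per the submitters' processing notes, bcl2fastq, TopHat and featureCounts of Subread were used on mm10; versions are not given in the sources used here. Per the labels, the TruSeq RNA v2 kit was used, which does not mark strand, so overlapping genes on opposite strands cannot be told apart. No member overlaps another gene of the table.

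The deposited counts went into edgeR 4.0.16 (R 4.3.3): filterByExpr, TMM, a quasi-likelihood fit over all 12 libraries with group as the only term, and Benjamini-Hochberg adjustment over all genes. RPKM served for levels between genes only. Counting intervals are 95% and exact for the pooled reads of each group, and leave out the spread between libraries. The procedure was tested on simulated data. Changes were planted only in genes with more reads on average than any member but Cd4, so the other members' levels were not covered. Alternatives were RLE scaling, no filter, DESeq2 1.42.0, limma 3.58.1 voom, the 2 groups compared alone, each library left out, Old 7 and 9 and Old_CP2 11 and 15, poorest in choroid plexus RNA, left out and, chosen after seeing the data, counts divided by 2.

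The members and gene lists were chosen with earlier results of these data known. All 10 members are described. For Cd8a and Cd4 the 5 genes of highest Pearson correlation of log2 CPM are named, leaving out members, antigen receptor genes and unnamed models. From each list up to 4 called genes by smallest p are eligible to be named, or up to 2 where none was called. Other genes are marked as chosen after their values were seen. Trdc, Trgc1, Trgc2, Trgc4, Cd244a, Jchain and Drd1 of the lists were not analysed here.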

Additional observations from a re-analysis of the deposited data

Results flagged for a closer look

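Of 30 groups of 4 libraries, 10 members in 3 groups, 2 held a library apart from its neighbours. For measurements on a continuous scale chance marks about 1 in 20, but with 3 libraries at 0 any read sets the other one apart. Cd3d was at 0.0112 CPM in Young 5, from 1 read, while the other 3 Young libraries held none. Gzma was at 0.0208 CPM in Old_CP2 11, from 2 reads, while the other 3 Old_CP2 libraries held none. Both values lie within the 3 reads that a count of 0 allows.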

How the results depend on the processing

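Of 408 fitted values of single members under the alternatives, 395 stayed on their side of the threshold, 11 lost their call and 2 gained one (Nkg7 with 2 groups fitted and Cd3g without Young 1, both Old_CP2 over Young). No called value changed sign. In Old against Young, 2 members were called; with the 2 groups alone or with counts divided by 2 it was 1, because Cd8a then fell under the filter (edgeR adjusted p without a filter 0.0278 and 0.0352), and without Old 7 and 9 and Old_CP2 11 and 15 (poorest in choroid plexus RNA) it was 0. In Old_CP2 against Young, 2 were called, 4 without a filter, and 1 without those 4 libraries or with counts divided by 2. Over all genes, DESeq2 called 2474, 108 and 2652 genes in Old against Young, Old_CP2 against Old and Old_CP2 against Young, where edgeR called 1511, 10 and 1707; without the 4 libraries it was 514, 21 and 709, and without a filter 17 for Old_CP2 against Old. Leaving out 1 library gave 2 to 2 members in Old against Young, 0 to 0 in Old_CP2 against Old and 1 to 2 in Old_CP2 against Young, and 855 to 1258, 6 to 38 and 827 to 1590 genes. The cause of these shifts was not tested, beyond the fewer libraries fitted. No paired analysis was possible because the groups share no replicate numbers. Depth limits every member but Cd4, with 0 to 9 reads in each Young library.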
